A study of Mus musculus with 9 samples.

Results

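The cytokine genes Il1b, Il10, Il22 and Tslp were followed over the 9 arrays of a mouse lung series. Their probes were found by the gene symbol in the annotation of the array platform. Each symbol matched 1 probe, so the set holds 4 of the 10012 probes and 4 of the 8841 named genes. The genes were selected on their measured log2 ratios in these 3 groups. Their levels and differences are therefore given as a description, with standard errors and no test.

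The arrays measured total RNA of mouse lung tissue in 3 groups of 3. The control group carries no treatment in its labels, and how these lungs were handled is not given there. The LPS group had an injection of E. coli lipopolysaccharide, serotype O127:BO, at 3 mg/kg, and the time between injection and sampling is not given. The overventilation group received mechanical ventilation for 3 h with a pressure of 25 cmH2O. Strain, age and sex are not stated. Whether each sample is a separate animal is not stated either, so the spread between samples may be technical. Of 7 marker genes of lung epithelium on the array, all 7 were measurable in enough samples to be tested, among them the surfactant protein gene Sftpc and the club cell gene Scgb1a1. In whole tissue, fewer cells of a type and less RNA per cell cannot be told apart.

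Il1b encodes interleukin-1 beta, a fever-inducing cytokine that macrophages and other myeloid cells make as an inactive precursor, which caspase-1 cleaves in the inflammasome. Interleukin-10 restrains macrophage activation through a receptor on leukocytes that signals by JAK1, TYK2 and STAT3. Interleukin-22 belongs to the same cytokine family and shares the receptor chain IL10RB, but it comes from lymphoid cells and acts on epithelium, where it induces antimicrobial and repair genes. Thymic stromal lymphopoietin, the product of Tslp, is released by airway epithelium and stromal cells and acts through CRLF2 and IL7R on dendritic cells and type 2 lymphocytes.

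Il1b lies on chromosome 2 at 129364569 to 129371164, Il10 on chromosome 1 at 131019845 to 131024970 and Il22 on chromosome 10 at 118204584 to 118210047 (RefSeq, GRCm38.p6). The sequence just upstream of Il1b is shown because this gene is the myeloid cytokine against which the others are set below. It was taken from RefSeq (GRCm38.p6, chr2:129371165-129371389, minus strand, 225 bases up to the annotated gene start) and is written 5′ to 3′ with the only motif match in capitals.
Il1b: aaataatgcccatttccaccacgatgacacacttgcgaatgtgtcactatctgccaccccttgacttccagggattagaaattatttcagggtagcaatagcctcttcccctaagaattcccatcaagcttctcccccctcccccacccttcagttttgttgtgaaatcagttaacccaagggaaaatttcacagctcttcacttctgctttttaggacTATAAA
The capitals mark a TATA box, TATAAA, the motif that positions the transcription machinery. It lay at -31 from the start site of the promoter table, and 10.6% of 32851 windows of the same length held this motif on either strand. The letters of an AP-1 site (TGANTCA, in 6.24% of windows), a GAS element for STAT factors (TTCNNNGAA, 6.38%), a C/EBP motif (TTGCNNAA, 8.91%) and a kappa B site (6.48%) were not in this window on either strand. None of the motifs searched overlapped another.

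The deposited values are ratios to the geometric mean of the 3 control arrays and are given here on the log2 scale, where the control mean is 0. They hold no level of one gene against another. Each array also has a floor below which no signal was recorded, seen as its value in the most frequent row of the table. On the log2 scale this floor lay at -0.50, 0.10 and 0.40 in the controls (arrays 1 to 3 in order), at -0.06, -0.03 and -0.02 after LPS, and at -0.03, -0.32 and 1.15 after overventilation. Overventilation array 3 thus has the highest floor. It held 42.4% of that array's probes, and 27.8% to 39.4% lay at the floor elsewhere. A probe with 2 or more arrays at the floor has a known floor, while with fewer the floor of that probe is known only by an upper limit.

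Il1b was measured without a known floor value. Its log2 ratios were 0.39, 0.13 and -0.52 on the controls, -0.84, 1.09 and 0.79 on the LPS arrays, and -0.04, 0.85 and 0.83 on the overventilation arrays, each in the order of replicates 1 to 3. As deposited, LPS arrays 2 and 3 and overventilation arrays 2 and 3 stood above all controls. LPS array 1 stood below all controls, and overventilation array 1 fell inside their range. This arrangement depended on the scaling of the arrays. With each array divided by its own floor, only LPS array 2 (1.12) and overventilation array 2 (1.17) stood above all controls. Control array 1 was then at 0.89, LPS array 3 at 0.81 and overventilation array 3 at -0.32. LPS array 1, at -0.78, was above control array 3, at -0.92. Control array 3 was nearest to the floor, and it alone could be at it. If no value lies below its floor, LPS array 1 was above its own by at least 0.14 and overventilation array 3 by at least 0.60. The mean was 0.35 ± 1.04 (SD, n = 3) after LPS and 0.55 ± 0.51 (SD, n = 3) after overventilation, against 0 ± 0.47 (SD, n = 3) in controls. Both differences lie within the spread of the samples, with a standard error of 0.53 for each. Il1b had the smallest difference of the 4 genes in both comparisons.

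Il10 had no array at a known floor either. Its log2 ratios were 0.39, 0.14 and -0.53 on the controls, -0.37, 1.82 and 1.20 on the LPS arrays, and 1.29, 1.62 and 0.71 on the overventilation arrays. All 3 overventilation arrays stood above all 3 controls, and so did LPS arrays 2 and 3, while LPS array 1 lay between the controls. The mean difference from control was 1.20 after overventilation (2.30-fold) and 0.88 after LPS (1.84-fold), and the standard error was 0.55 for each. The value on overventilation array 3 was at least 0.48 above that array's floor, and on control array 3 it could be at the floor. The separation of Il10 depended on the scaling of the arrays. With each array divided by its own floor, overventilation array 3 stood at -0.45 and control array 1 at 0.89, and both groups overlapped.

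Il22 was the member closest to the floor. Its ratios on the log2 scale were -0.50, 0.11 and 0.39 on the controls, -0.07, 3.37 and 2.60 on the LPS arrays, and 2.39, 2.12 and 1.45 on the overventilation arrays. Control arrays 1 and 3 and LPS array 1 were at the floor, and control array 2 was 0.02 above it. The control values of Il22 are therefore those of the floor and not a measured level. LPS arrays 2 and 3 lay 3.41 and 2.62 above their floors, overventilation arrays 1 and 2 lay 2.43 and 2.44 above theirs, and overventilation array 3 lay 0.31 above its high floor. In all, 5 arrays stood above the highest floor of the series, all of them LPS or overventilation arrays, so Il22 passed the filter on low values only through the groups in which it is high.

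As deposited, the log2 difference of Il22 from control was 1.99 after overventilation and 1.97 after LPS. With all values raised to the highest of the 9 floors, as was done for the fit, all 3 controls and LPS array 1 became equal, and the differences were 0.84 after overventilation and 1.23 after LPS, with a standard error of 0.52 each. The size of these differences is set in part by the floor, since the controls lie at or below the level they were raised to. All 3 overventilation arrays were above all 3 controls on the deposited scale, after the common floor and with each array divided by its own floor. With the controls at or next to the floor, any array further above the floor used must stand above them on the floor-based scales. Those scales are therefore no separate check.

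Tslp, on chromosome 18 at 32815383 to 32819799 (RefSeq, GRCm38.p6), had no array at a known floor and the smallest spread among controls before any floor was applied. Its log2 ratios were -0.03, 0.21 and -0.18 on the controls, -0.22, 1.43 and 0.55 on the LPS arrays, and 1.04, 1.32 and 1.83 on the overventilation arrays. As deposited, every overventilation array was above every control, and LPS array 1 was below every control while LPS arrays 2 and 3 were above. The mean was 1.39 ± 0.40 (SD, n = 3) after overventilation, a 2.63-fold difference from 0 ± 0.20 (SD, n = 3) in controls, with a standard error of 0.43. After LPS it was 0.59 ± 0.83 (SD, n = 3). On overventilation array 3, the array with the high floor, Tslp was highest as deposited, at least 1.25 above that floor, whereas Il10 and Il22 were lowest there among the 3 overventilation arrays. This contrast depended on the scaling of the arrays. With each array divided by its own floor Tslp stood at 1.06, 1.64 and 0.68 on overventilation arrays 1 to 3, so that array 3 was its lowest too, and all 3 remained above the highest control, at 0.46.

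**Figure D1:**
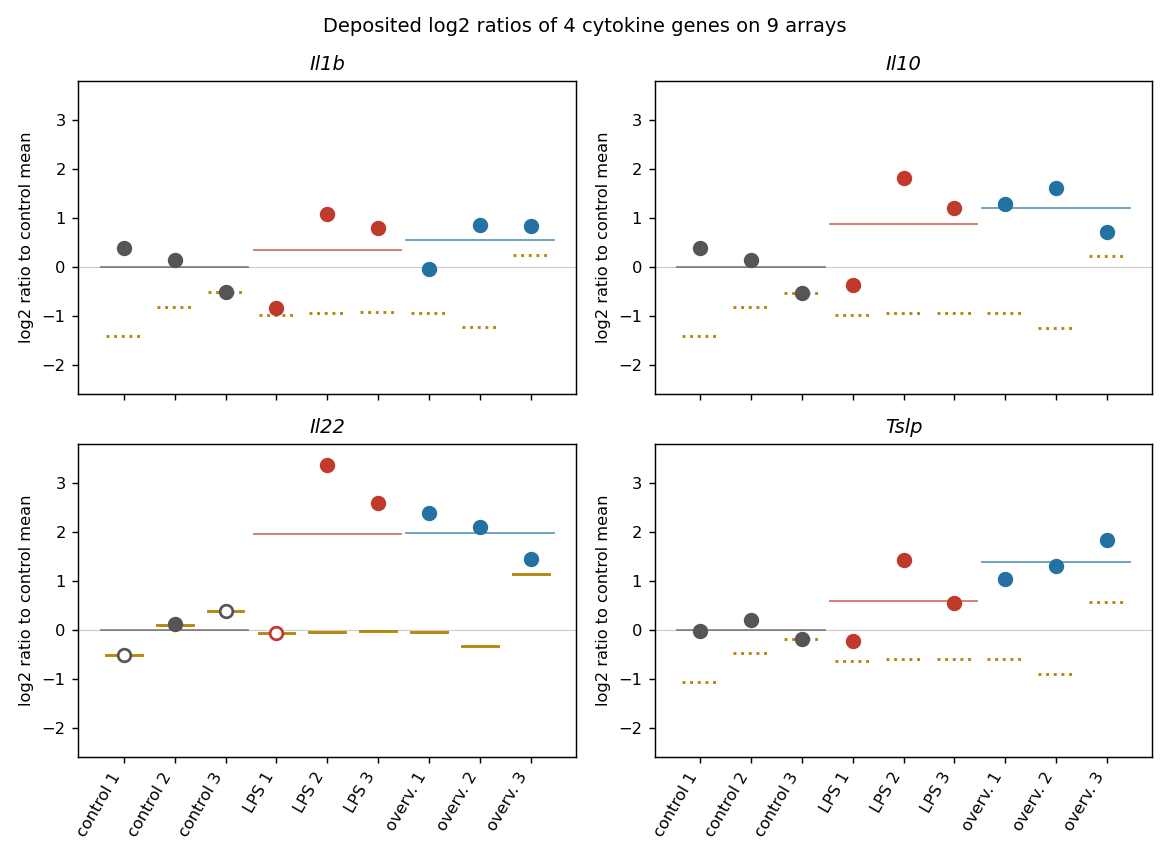
Each panel plots 1 gene, with the 9 arrays on the horizontal axis and the deposited log2 ratio to the control mean on the vertical axis. Long thin lines are group means, open points are values at the floor, solid short bars are the known floors of Il22 and dotted short bars are the highest level each floor could have for the other genes. LPS array 1 lies below the control mean in all 4 panels, and the open points of Il22 are control arrays 1 and 3 and LPS array 1.

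For overventilation against control, the groups did not overlap for 3 of the 4 genes, Il10, Il22 and Tslp, all of them higher. Over all 5710 tested probes this held for 9.12%. With each array divided by its own floor it held for Il22 and Tslp, beside 3.8% of tested probes. For Il22, whose controls lie at or next to the floor, this separation needed only values above the floor. For LPS against control the groups overlapped for all 4 genes, and 2.24% of tested probes were higher without overlap. As deposited and after the common floor, each gene had LPS arrays 2 and 3 above all controls and LPS array 1 not above them. This arrangement was singled out after the values were seen. After the common floor it was found at 10.3% of tested probes, against 1.56% with array 2 and 3.26% with array 3 as the array not above the controls. With each array divided by its own floor Il1b did not have it, with control array 1 at 0.89 and LPS array 3 at 0.81. Without LPS replicate 1 the differences of Il1b, Il10, Il22 and Tslp from control were 0.94, 1.51, 1.84 and 0.99. Without LPS replicate 2 they were -0.02, 0.41, 0.73 and 0.16. Beside these values, the median of 3 macrophage and monocyte genes was 2.25, 0.83 and -0.53 on LPS arrays 1 to 3, and that of 3 neutrophil genes 0.25, -0.92 and -0.86. On control arrays 1 to 3 these medians were 0.42, 0.63 and -0.86 for the macrophage and monocyte genes and 0.52, -0.86 and 0.26 for the neutrophil genes. Their part in the cytokine values was not tested.

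Overventilation and LPS overlapped for all 4 genes when set against each other, where 5.71% of tested probes were higher after overventilation without overlap. The difference of overventilation from LPS was 0.20 for Il1b, 0.32 for Il10, -0.39 for Il22 and 0.81 for Tslp on the log2 scale after the common floor. The sign for Il22 turned with the treatment of the floor, at 0.02 as deposited. Without LPS replicate 1 the differences were -0.39 for Il1b, -0.31 for Il10, -1.0 for Il22 and 0.40 for Tslp. These comparisons with control share the 3 control arrays. In order of their difference from control on the common floor scale, the genes with measured controls ran Tslp, Il10 and Il1b after overventilation and Il10, Tslp and Il1b after LPS. Each difference from control had a standard error of 0.43 to 0.55. Differences between genes were not tested, so both orders are a description. Il22, with its controls at the floor, has no fixed place after overventilation. It lay between Il10 and Il1b on the common floor scale (0.84) and above all of them as deposited (1.99) and with each array divided by its own floor (1.72).

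**Figure D2:**
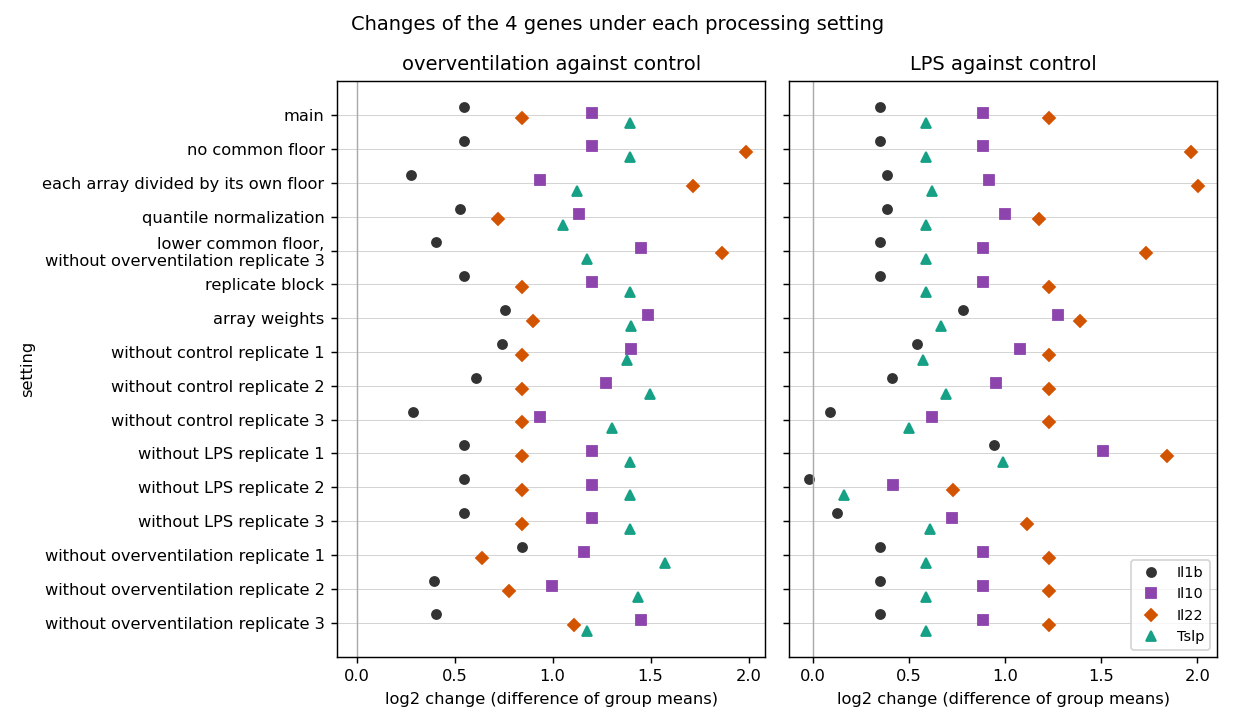
The log2 change of each gene, as a difference of group means, is plotted on the horizontal axis for every processing setting on the vertical axis, for overventilation against control and LPS against control. Values of Il22 range most with the treatment of the floor, from 0.84 in the main setting to 1.99 with no common floor after overventilation. The points after LPS shift together when LPS replicate 1 or 2 is left out.

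All pairs of the 4 genes had positive correlations over the 9 arrays, which share their groups and scaling and are described without a test. On the scale with the common floor, Pearson's r was 0.875 for Il10 and Il22, 0.822 for Il1b and Il10, 0.783 for Il10 and Tslp, 0.758 for Il1b and Tslp, 0.627 for Il1b and Il22, and 0.6 for Il22 and Tslp. The order of the pairs changed with the scaling. With each array divided by its own floor, r was 0.899 for Il1b and Il10, 0.88 for Il10 and Tslp, and 0.855 for Il10 and Il22. It was 0.802 for Il22 and Tslp, 0.784 for Il1b and Tslp, and 0.67 for Il1b and Il22. On the common floor scale many other genes were closer to each. By r among 5088 other genes on that scale, the members ranked from 15 (Il10 for Il22) to 934 (Il22 for Tslp) in likeness to one another. Among the controls, Il1b and Il10 differed by at most 0.01 on any array. Beside Il10, no tested probe came within 0.02 of Il1b on all 3 controls.

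Among 5088 other genes, those whose pattern over the 9 arrays was most like Il1b were Taf9 (r = 0.927), a subunit gene of general transcription factor complexes, Pafah1b1 (r = 0.923), a dynein regulator gene, and Baz1a (r = 0.908), a chromatin remodelling gene. The closest to Il10 were Stx11 (r = 0.972), a syntaxin gene of vesicle fusion in immune cells, Selp (r = 0.951), which encodes P-selectin of platelets and activated endothelium, and Cxcl1 (r = 0.943), a neutrophil chemokine gene. Those closest to Il22 were Slc10a1 (r = 0.96), a bile acid transporter gene, the interferon-induced GTPase gene Ifi47 (r = 0.943) and the histone gene H3f3a (r = 0.916). For Tslp they were Tm4sf1 (r = 0.975), a tetraspanin-like gene of endothelium, Cmtr1 (r = 0.962), an RNA cap methyltransferase gene, and the interferon-induced chemokine gene Cxcl10 (r = 0.962). The values of r above 0.9 numbered 75 for Tslp, 12 for Il10 and 5 each for Il1b and Il22. With each array divided by its own floor, r with Il22 fell to 0.743 for Slc10a1, 0.836 for Ifi47 and 0.817 for H3f3a. For Cxcl10 with Tslp it fell to 0.797.

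**Figure D3:**
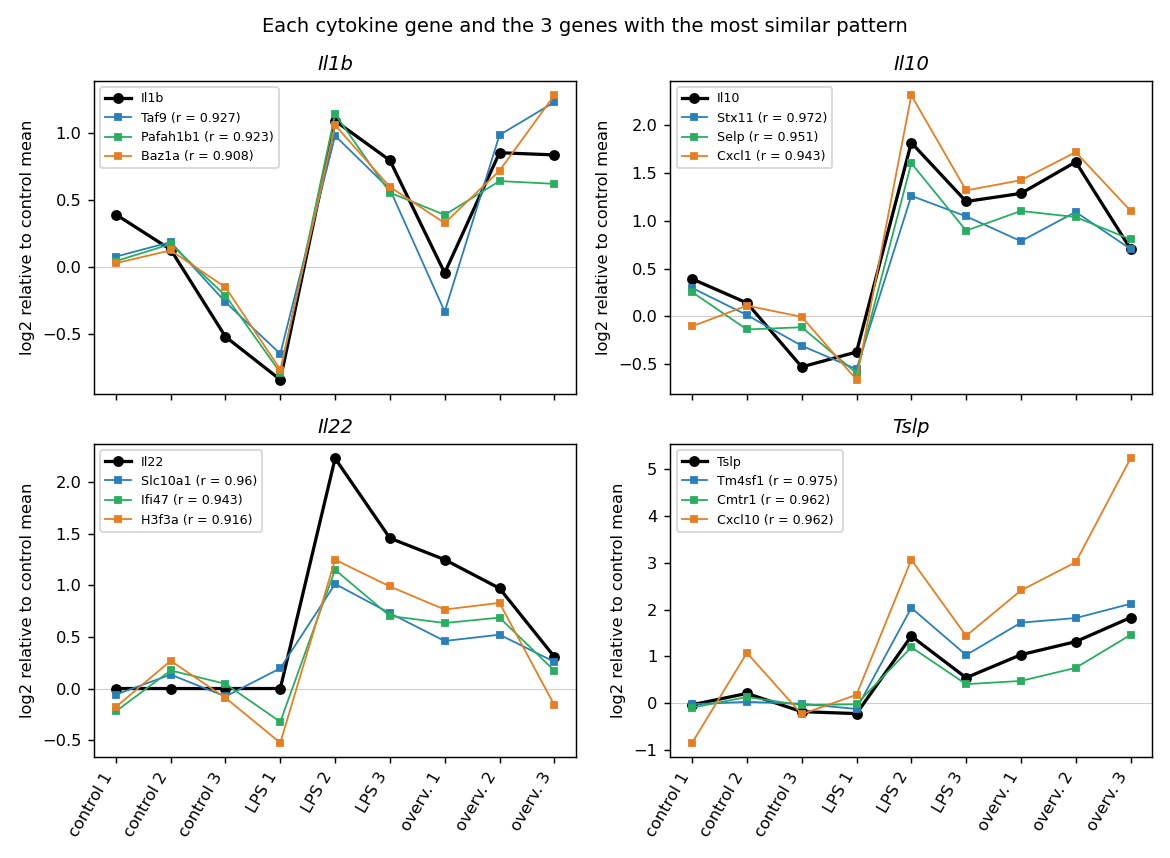
Log2 values relative to the control mean, after the common floor, are plotted for each cytokine gene (black) and the 3 genes most like it over 9 arrays. Lines join the arrays for reading only, since replicates have no order. For each gene shown LPS array 1 lies below LPS arrays 2 and 3, and on this scale Tslp and the 3 genes like it were highest on overventilation array 3. With each array divided by its own floor only Cxcl10 of these was highest there, and Tslp, Tm4sf1 and Cmtr1 were lowest there among the overventilation arrays.

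The genes that process, receive and transmit these cytokines were taken from 10 lists of 152 genes, of which 90 were on the array and 57 were tested. For overventilation against control, 0 of the 57 passed limma at a Benjamini-Hochberg adjusted p under 0.05, beside 0% of all tested probes, and the lowest adjusted p was 0.219. At an unadjusted p under 0.05, 4 were higher (7.02%, beside 6.2% of all tested probes) and 1 was lower (1.75%, beside 8.69%). Without overlap between the groups, 4 were higher, Map3k8, Socs3, Il21 and Il7 (7.02%, beside 9.12% of all tested probes), and Il5 was lower (1.75%, beside 10.5%), shares no larger than the background. Their median log2 change was 0.21, against -0.01 over all tested probes. For LPS against control 0 passed at the adjusted threshold (0% of all tested probes, lowest adjusted p = 1), and at an unadjusted p under 0.05 1 was higher (1.75%, beside 0.998%) and 0 were lower (beside 1.07%). Slpi and Ccl22 were higher without overlap after LPS (3.51%, beside 2.24% of all tested probes) and Tbx21 was lower (1.75%, beside 4.08%). With the replicate number as a block 3 were higher at an unadjusted p under 0.05, Myd88, Slpi and Socs1, beside 2.33% of all tested probes, and again 0 passed the adjusted threshold. The median was 0.15, against -0.05 over all tested probes.

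For the interleukin-1 system, the receptor gene Il1r1 had log2 changes of 0.39 after overventilation and 0.54 after LPS, each with a standard error of 0.37. Il1rapl2, which encodes a receptor accessory protein-like chain, had 0.92 and 0.68. The decoy receptor gene Il1r2 was at the floor on 5 arrays, the controls, LPS array 1 and overventilation array 3, and 0.26 to 0.43 above it on the others. Il1rap, the shared accessory chain gene, was at the floor on 4 arrays, LPS array 1 and overventilation array 3 among them, and highest above it on overventilation array 1, by 1.52. The receptor antagonist gene Il1rn was at the floor on 4 arrays, control arrays 2 and 3 and LPS arrays 1 and 3, and 1.37, 0.86 and 2.13 above it on overventilation arrays 1 to 3, against 1.05 on control array 1 and 0.44 on LPS array 2. Il1a, which encodes the other interleukin-1, was at the floor on 7 of 9 arrays. The related cytokine gene Il18 and its binding protein gene Il18bp were the tested ligands and inhibitors, at -0.60 and -0.06 after overventilation and -0.68 and -0.81 after LPS.

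Of 7 processing genes on the array, 5 were tested and none passed at an unadjusted p under 0.05. Casp1, the protease that cleaves the precursor, had log2 changes of 0.52 after overventilation and 0.24 after LPS, and Casp4, the protease that senses cytosolic LPS, 0.58 and 0.33. The adaptor gene Pycard had -0.47 and -0.09. Among 9 tested signalling genes, Myd88, the adaptor of interleukin-1 and Toll-like receptors, had the largest positive change after overventilation (2.56 with a standard error of 0.84, limma adjusted p = 0.219) and 1.72 after LPS. Its control values of -1.16, 1.55 and -0.39 overlapped both treated groups. The ubiquitin ligase gene Peli1 had a change of -2.37 after overventilation (adjusted p = 0.219), with -3.44 and -3.56 on arrays 1 and 3 and -0.12 on array 2. Without overventilation replicate 2 its change was -3.50 and passed the test (adjusted p = 0.00132, with a range of 0.00132 to 0.661 over the alternatives). In that setting 290 of 5710 tested probes passed. The kinase gene Map3k8 had 1.02 after overventilation (adjusted p = 0.364), without overlap of overventilation and controls.

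For interleukin-10 and interleukin-22, Il10ra and Il10rb, which encode both chains of the interleukin-10 receptor, were at the floor on 8 of 9 arrays. Il10ra was above it on control array 1 alone, by 1.12, and Il10rb on LPS array 2 alone, by 0.12. Il24, a further cytokine gene of the family, had changes of 0.12 after overventilation and -0.12 after LPS. No probe used here carried the symbol Il22ra1 or Il22ra2, so these receptor genes could not be followed. Of 7 tested signalling genes, the transcription factor gene Stat3 (log2 change 1.13, adjusted p = 0.297, and 1.38 at a second probe) and the feedback inhibitor gene Socs3 (1.28, adjusted p = 0.233) were higher after overventilation at an unadjusted p under 0.05 without passing the adjusted test, and Socs1 had the only such change after LPS (1.26). Socs3 stood at 1.07, 0.90 and 1.87 after overventilation and at 0.52, -0.04 and -0.48 in controls, without overlap. Of 13 genes on the array that interleukin-22 is known to induce in epithelium, 8 were tested and the other 5 were at the floor on all 9 arrays, among them Reg3b and Lbp. Slpi, a protease inhibitor gene, had log2 changes of 1.00 after overventilation (adjusted p = 0.274) and 0.80 after LPS. The acute phase gene Saa3 had 0.83 and 0.45, and the antimicrobial lectin gene Reg3g 0.26 and -0.04. S100a8, which is also a neutrophil marker, had -1.04 and -0.77. Among genes of the cells that make interleukin-22 and of their inducers, Ccr6 and Il21r were at the floor on all 9 arrays, and the 4 tested genes had a median log2 change of 0.32 after overventilation, with 4 of 4 above 0, and 0.10 after LPS, with 2 above 0. Il21, a T helper cell cytokine gene, had 1.04 after overventilation (adjusted p = 0.382) and 0.23 after LPS. Its values of 0.72, 0.80 and 1.59 on overventilation arrays 1 to 3 lay above those of all controls (-1.11, 0.69 and 0.42) and all LPS arrays. Tbx21, the gene of the type 1 lineage factor T-bet, had 0.17 after overventilation and -0.47 after LPS (adjusted p = 1), where its 3 arrays lay below all controls. The nuclear receptor gene Rora had 0.28 and 0.35. Ahr, which encodes a receptor that promotes Il22 transcription, had 0.35 and -0.03.

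For Tslp, its receptor gene Crlf2 had values between -1.04 and 0.15 on 8 arrays and -6.98 on LPS array 2, so that its mean change after LPS of -2.29 rests on that array. Il7r, the second receptor chain gene, was at the floor on control array 3 and overventilation array 3 and had changes of -0.19 after overventilation and 0.36 after LPS. Of 8 tested genes of the receptor and its signalling none passed at an unadjusted p under 0.05 in either comparison with control. Cish, a target gene of STAT5, had 0.89 after overventilation and -0.14 after LPS. Il7, which encodes the other ligand of the IL7R chain, had 0.57 and 0.46. Of 10 tested type 2 genes downstream, 6 had changes below 0 after overventilation, with a median of -0.42, and 3 after LPS, with a median of 0.16. The chemokine gene Ccl17, which attracts type 2 helper cells, stood at -2.47, 0.54 and -4.0 on overventilation arrays 1 to 3 and at 0.74, 0.20 and 0.74 on the LPS arrays. Its change after overventilation was -1.97 and did not pass the test (adjusted p = 0.364). Array 2 lay within the range of the controls, and arrays 1 and 3 lay below it. Ccl17 passed only without overventilation replicate 2, a setting in which 290 of 5710 tested probes passed. Its change was then -3.23 (limma adjusted p = 0.011, with a range of 0.011 to 0.877 over the alternatives). Ccl22, a chemokine gene of the same receptor, had 0.09 after overventilation and 0.51 after LPS. Il5, the eosinophil growth factor gene, had -0.77 after overventilation (adjusted p = 0.344), with no overlap of the samples.

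**Figure D4:**
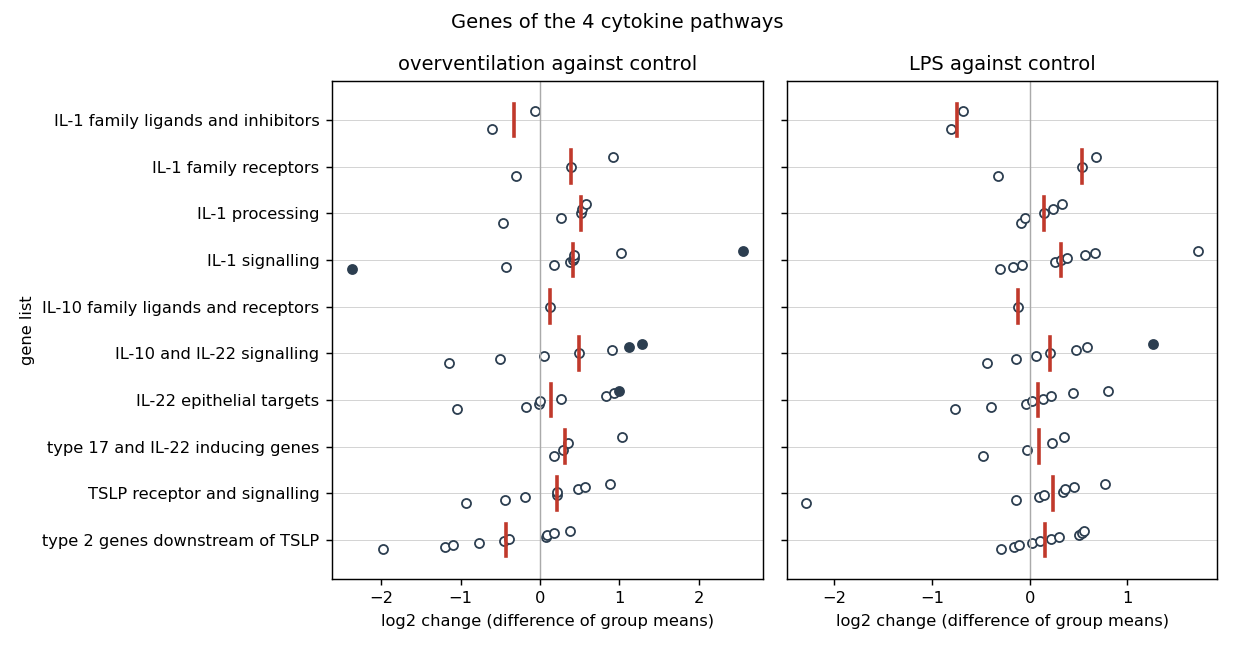
Each point is 1 tested gene of a list, placed by its log2 change against control, after overventilation on the left and after LPS on the right. Filled points have an unadjusted limma p under 0.05, open points do not, and vertical bars are list medians. None of the 57 genes passed at an adjusted p under 0.05, and the 5 filled points on the left are Myd88, Peli1, Stat3, Socs3 and Slpi.

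Markers of the cells that could carry these transcripts gave no tested gene past the adjusted threshold in either comparison with control. Of 3 tested neutrophil markers, Csf3r, the receptor gene for granulocyte colony-stimulating factor, had -0.92 after overventilation and Ngp -0.60, and the list's median was -0.92 after overventilation and -0.75 after LPS. Mpo and Cxcr2 were at the floor on 8 of 9 arrays. Of 3 tested macrophage and monocyte markers Lyz2 had 2.56 after overventilation (adjusted p = 0.265), Mrc1 0.29 and Chil3 -1.10 (adjusted p = 0.814). After LPS they had 1.04, 0.15 and -0.29, so the list's medians were 0.29 and 0.15, and Adgre1 was at the floor on all 9 arrays. Of the T cell and innate lymphoid cell markers Cd3e and Cd8a were at the floor on all 9 arrays, and the median of 4 tested genes was -0.28 after overventilation and 0.21 after LPS, with -0.38 and 0.34 for Cd3g and -0.37 and 0.07 for Cd4. The medians of 3 mast cell genes were 0.32 and 0.23, from Tpsb2 (-0.19 and 1.01), Tpsab1 (0.32 and 0.23) and Kit (0.62 and 0.09). For the B cell genes Cd79a (-0.98 and -0.28) and Cd79b (0.32 and 0.61) they were -0.33 and 0.17, and for the endothelial genes Tek (0.71 and 0.01) and Kdr (0.27 and -0.51) 0.49 and -0.25. For the 7 epithelial genes the medians were 0.22 and 0.22, but the genes differed widely after overventilation. Napsa, an aspartic protease gene of alveolar type 2 cells, had -2.13 (adjusted p = 0.193) and Ager, a gene of alveolar type 1 cells, 2.27 (adjusted p = 0.246), both without overlap with controls. A second tested probe of Napsa went the other way, at 0.48 after overventilation, so the direction for Napsa is not settled. The surfactant protein gene Sftpd had 1.87 (adjusted p = 0.310). On overventilation array 3 alone Ager stood at 4.48, Sftpd at 4.12 and Lyz2 at 4.77, their highest values of the 9 arrays. The water channel gene Aqp5 had 0.22 after overventilation and 2.60 after LPS (adjusted p = 1). It was at the floor on 4 arrays, control arrays 2 and 3 and overventilation arrays 1 and 2, so both changes are set in part by the floor. Control array 1 stood at 2.48, above LPS array 1 at 2.33. The part of these markers in the cytokine values was not tested.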

How the data were processed

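The deposited table holds 1 value per probe and array for 9 lung samples. The values are linear ratios, as tested on the deposited values: the 3 control log2 values averaged 0 at every probe (largest deviation 2.5e-09). The sources used here do not give the array maker, scanner, upstream steps or scaling between arrays. At 4690 of 10012 probes, 2 or more arrays shared the floor pattern (tolerance 1e-06, log2). There, all lower values were set to the highest array floor (a ratio of 2.22) and centred on the controls. Probes were tested if above it on 3 or more arrays, or if no 2 arrays were at the floor, which left 5710. Groups were compared in limma 3.58.1 with R 4.3.3 (all 9 arrays, eBayes, two-sided), with Benjamini-Hochberg adjustment over all tested probes, and the fit was tested on simulated data. A gene with several probes is represented by the probe least often at the floor, then by the lowest probe number. Named were the 4 genes, their receptors and Il1rn, the 3 genes most like each by Pearson's r, and in each list up to 2 genes with the smallest p per comparison with control, while other genes were named after their values were seen. The genes and lists were chosen with earlier results of these data known. Alternatives covered the floor, scaling, filter, replicate block, weights and leaving out each array. Deviations of same-numbered samples correlated at 0.497, 0.247 and 0.199 for LPS and control and at 0.508, 0.133 and 0.033 for overventilation and control. The values were over 0.1 for each LPS pair, and the replicate number was used as a block over all 9 arrays, in that alternative only. This took in the overventilation arrays, although replicate 3 correlated at only 0.033 with control and 0.038 with LPS. The choice was made from the values since the labels name no pairs. The main fit held no block, and it gave all standard errors and p-values for which no other setting is named. The number of arrays limits the precision.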

Additional observations from a re-analysis of the deposited data

How the results depend on the processing

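Each of the 4 genes kept a positive difference from control after overventilation under every alternative run, and after LPS under every alternative except for Il1b without LPS replicate 2 (-0.02). Not all of these could change it. Leaving out an array of the group not compared, or adding the replicate block, left each difference as it was. So did dropping the common floor for Il1b, Il10 and Tslp. After overventilation the difference of Il22 was 1.99 with no common floor, 1.72 with each array divided by its own floor and 1.86 with the common floor lowered and overventilation array 3 left out, against 0.84, and that of Tslp was 1.05 with quantile normalization, against 1.39. Dividing each array by its own floor moved the median of all tested probes to -0.27 for overventilation against control. Relative to that median Il1b, Il10, Il22 and Tslp stood at 0.55, 1.21, 1.99 and 1.40. Dividing an array by its floor shifts all its probes alike. These values were therefore bound to equal those with no common floor and are no separate check. Leaving out each array in turn gave 0.29 to 0.84 for Il1b, 0.94 to 1.45 for Il10, 0.64 to 1.11 for Il22 and 1.18 to 1.57 for Tslp after overventilation. After LPS it gave -0.02 to 0.94, 0.41 to 1.51, 0.73 to 1.84 and 0.16 to 0.99. The limma count at an adjusted p under 0.05 was 0 in each comparison and in all alternatives with 9 arrays. Leaving out an array gave 0 to 290 for overventilation against control, 0 to 1 for LPS against control and 0 to 226 for overventilation against LPS, the highest without overventilation replicate 2 in the comparisons of overventilation, and Retn alone without control replicate 3. Of the 57 tested pathway genes 0 to 2 and 0 to 4 were then called in these comparisons of overventilation with control and with LPS. The highest counts over all 5710 tested probes were 290 and 226. The 4 pathway genes called were Peli1, Ccl17, Ccl11 and Jak2. At an unadjusted p under 0.05 the count for overventilation against control was 850, with 520 when arrays were divided by their own floors and 401 with quantile normalization. It was 490 at the lower floor, 1200 with the replicate block and 483 to 990 leaving out an array. For LPS against control it was 118, with 41 for own floors, 314 with the replicate block, 420 with array weights and 56 to 457 leaving out an array. For overventilation against LPS it was 543, with 312 for own floors, 217 with quantile normalization, 185 at the lower floor, 840 with the replicate block and 181 to 825 leaving out an array. The replicate block changed no adjusted call. No gene had a second probe among the 4 cytokines, so that alternative gave no value. The cause of these shifts was not tested.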
